A study of Canis lupus familiaris with 20 samples.

Results

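MYH8, ACTC1, TNNT2, CHRNG and H19 are 5 genes that skeletal muscle uses before birth and in newly formed fibres, and each was measured by 1 probe among the 42034 probes of a canine array. The members are every probe whose gene name in the scanner files is one of these 5 symbols, which gave 5 probes, all of them tested. Muscle RNA came from 10 dogs aged 2 years: 4 dystrophic dogs labelled affected, 2 dystrophic dogs labelled escaper and 4 normal dogs. The labels give DMD (Duchenne muscular dystrophy, the loss of the membrane-supporting protein dystrophin) for the affected as for the escaper dogs, and the name escaper is used for dystrophic dogs whose disease stays mild. The labels name neither the muscle, the breed nor the mutation. Each dog was hybridised on 2 arrays of 2 colours, once in Cy5 and once in Cy3, against a common reference, the RNA of 1 individual labelled normal whose age the labels do not give. The value of a dog is the mean log2 ratio of dog over reference on its 2 arrays.

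Muscle fibres that form or rebuild pass through a stage with foetal versions of their contractile proteins, which adult versions later replace. In healthy adult limb muscle this stage is rarely seen, whereas in dystrophic muscle fibres break down and re-form repeatedly, and MYH8 protein is a common stain for recently formed fibres. MYH8 encodes the perinatal (neonatal) myosin heavy chain, the motor of the thick filament. ACTC1 encodes the cardiac alpha-actin, which is the main sarcomeric actin of foetal skeletal muscle, and TNNT2 the cardiac troponin T, which tethers the troponin complex to tropomyosin and is also used in foetal skeletal muscle. CHRNG encodes the gamma subunit of the foetal acetylcholine receptor, which the epsilon subunit CHRNE replaces at the mature nerve-muscle contact and which returns in denervated and re-forming fibres. H19 is an imprinted RNA without a protein product that is abundant in foetal tissues, is kept in adult skeletal muscle and lies next to the growth factor gene IGF2.

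The 5 probes are shown because each gene rests on 1 of them. Each has 60 bases, printed 5′ to 3′ as the array files give them.
MYH8: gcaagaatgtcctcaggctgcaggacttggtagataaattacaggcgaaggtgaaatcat
ACTC1: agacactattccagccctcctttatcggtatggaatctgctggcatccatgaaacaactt
TNNT2: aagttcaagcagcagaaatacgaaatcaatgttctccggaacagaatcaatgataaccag
CHRNG: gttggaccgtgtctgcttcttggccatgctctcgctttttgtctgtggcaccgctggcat
H19: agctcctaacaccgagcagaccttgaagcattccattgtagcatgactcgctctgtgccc

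The array files place the MYH8 probe (transcript NM_001077235) at chr5:37691343-37691402, the TNNT2 probe (NM_001003012) at chr7:4524060-4524119, the CHRNG probe (ENSCAFT00000017990) at chr25:47183289-47183348 and the H19 probe (NR_027327) at chr18:49228132-49228191. The ACTC1 probe (ENSCAFT00000019379) is placed at chr30:5504814-5505663, a span of 850 bases for 60 bases of probe. The genome build of these coordinates is not given in the sources used here, and neither are exon boundaries. In the RefSeq order of dog genes (assembly UU_Cfam_GSD_1.0), MYH8 lies between the myosin genes MYH13 and MYH4, CHRNG is next to the delta subunit gene CHRND, and H19 lies between MRPL23 and IGF2. Share of G and C ran from 38.3% in the TNNT2 probe to 56.7% in the CHRNG probe. The longest exact run that a member probe shared with any other probe of the array was 13 or 14 bases, so no other probe carries the same stretch. Binding of related transcripts, such as other actins or myosins, was not tested.

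All 5 probes were well above background on 20 of 20 arrays, in the dog's channel and in the reference's. Their mean intensity lay between the 81.5th and the 98.4th percentile of the tested probes. On the arrays 30.5% to 60.2% of probes were well above background, and the ratios of a dog's 2 arrays correlated over tested probes with r between 0.627 and 0.939. Affected 1 stood apart over the tested probes as a whole: its best correlation with any other dog was r = −0.0104, where that of the 9 other dogs was 0.42 to 0.86, while its own 2 arrays correlated with r = 0.872. The number of arrays limits the precision. The reference's spot was saturated on 20 of 20 arrays for H19 and on 18 of 20 for MYH8, so ratios to the reference are bounds for H19 and, on those arrays, for MYH8. In the dog's channel MYH8 was saturated on 3 arrays, both of affected 3 and the Cy5 array of affected 4, and no other member was. An outlier flag removed 4 MYH8 spots, the Cy3 arrays of affected 2, affected 4, normal 3 and normal 4, and these dogs rest on their Cy5 array. The absolute gap between a dog's 2 arrays had a median of 0.45 for MYH8 (6 dogs), 0.32 for ACTC1, 0.50 for TNNT2, 0.33 for CHRNG and 0.59 for H19 on the log2 scale.

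MYH8 gave a higher ratio to the common reference in each of the 6 dystrophic dogs than in any of the 4 normal dogs. The log2 ratio of MYH8 was −3.25, −0.30, 0.33 and 0.25 in affected 1 to 4, 0.75 and −2.11 in escaper 1 and 2, and −3.77, −4.20, −3.54 and −4.44 in normal 1 to 4. Affected 1 exceeded the highest normal dog by only 0.29. As a measured share of the reference's spot, MYH8 stood at 10.5% in affected 1 and 81.1% to 125% in the other affected dogs, at 169% in escaper 1 and 23.2% in escaper 2, and at 4.61% to 8.60% in normal dogs. Where the reference's spot alone was saturated, as for affected 1 and 2, both escapers and the normal dogs, the true share is at most the measured one, and for affected 3 and 4, whose own spots were saturated too, it may lie on either side. Escaper 1 had the highest measured ratio, but its order against affected 3 and 4, whose own spots were saturated, is not settled. Escaper 2 was the lowest after affected 1 among dystrophic dogs. The group mean was −0.75 ± 1.70 in affected dogs (SD, n = 4), −0.68 ± 2.02 in escapers (SD, n = 2) and −3.99 ± 0.41 in normal dogs (SD, n = 4). Normal dogs carried at least 15.9-fold less MYH8 signal than the reference, whose spot was saturated on 7 of the 8 arrays of normal dogs, the other spot being one of those left out.

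ACTC1 showed the same split with another order of dogs. Its log2 ratio was −3.19, 0.17, −0.52 and 0.81 in affected 1 to 4, −0.68 and 1.61 in escaper 1 and 2, and −3.70, −3.72, −4.07 and −3.87 in normal 1 to 4. All dystrophic dogs lay above all normal dogs, by 0.50 in affected 1 and by over 3 log2 units in the 5 others. Escaper 2 was highest at 306% of the reference, affected 4 next at 175%, and affected 1 lowest of the dystrophic dogs at 10.9%. The mean was −0.68 ± 1.76 in affected dogs (SD, n = 4), 0.47 ± 1.62 in escapers (SD, n = 2) and −3.84 ± 0.17 in normal dogs (SD, n = 4). No ACTC1 spot was saturated, and normal dogs lay 14.3-fold below the reference.

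TNNT2 stood at −2.54, −0.26, −0.93 and 0.42 in affected 1 to 4, at 0.44 and 2.02 in escaper 1 and 2, and at −2.71, −2.50, −2.61 and −2.54 in normal 1 to 4, as log2 ratio to the reference. The normal dogs spanned only 0.21 log2 units, and affected 1 lay inside that span while the 5 other dystrophic dogs lay well above it. Both escapers exceeded every affected dog, escaper 1 by 0.02 over affected 4 and escaper 2 by far more. Group means were −0.83 ± 1.27 in affected dogs (SD, n = 4), 1.23 ± 1.11 in escapers (SD, n = 2) and −2.59 ± 0.09 in normal dogs (SD, n = 4). TNNT2 reached 404% of the reference in escaper 2.

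**Figure D1:**
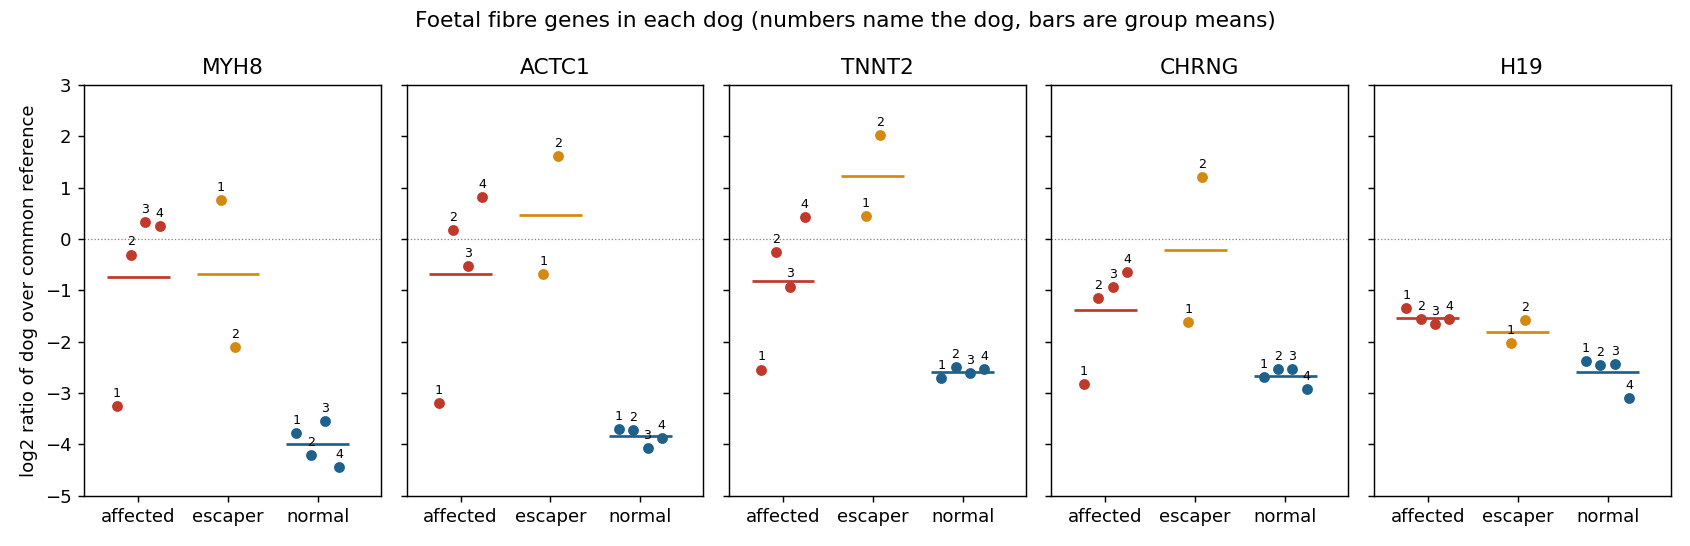
Log2 ratio of dog over common reference for each of the 5 genes (vertical axis) in affected, escaper and normal dogs (horizontal axis), where points are dogs, numbers name the dog and bars are group means. Normal dogs sit close together at the bottom of each panel, affected 1 sits near them except for H19, and escaper 2 is highest for ACTC1 (1.61), TNNT2 (2.02) and CHRNG (1.21) but not for MYH8 (−2.11).

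CHRNG was highest in escaper 2 and affected 4, as ACTC1 was. Its log2 ratio measured −2.82, −1.15, −0.94 and −0.65 in affected 1 to 4, −1.63 and 1.21 in escaper 1 and 2, and −2.70, −2.54, −2.54 and −2.92 in normal 1 to 4. Affected 1 lay among the normal dogs, the 3 other affected dogs stood at 45.0% to 63.7% of the reference, and escaper 2 alone exceeded the reference, at 232%. The mean was −1.39 ± 0.97 in affected dogs (SD, n = 4), −0.21 ± 2.01 in escapers (SD, n = 2) and −2.67 ± 0.18 in normal dogs (SD, n = 4). The escaper pair lay 2.84 log2 units apart, more than the distance of its mean from the normal mean.

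For H19 the dogs stood in another order than for the 4 protein-coding genes. Its log2 ratio was −1.35, −1.56, −1.66 and −1.56 in affected 1 to 4, −2.03 and −1.58 in escaper 1 and 2, and −2.38, −2.45, −2.44 and −3.09 in normal 1 to 4. Affected 1, which was close to or among the normal dogs for the other members, had the highest H19 of all dogs at 39.3% of the saturated reference spot. Affected dogs were close to each other, with a mean of −1.53 ± 0.13 (SD, n = 4), against −1.80 ± 0.32 in escapers (SD, n = 2) and −2.59 ± 0.34 in normal dogs (SD, n = 4). By measured ratio every dystrophic dog lay above every normal dog, the nearest being escaper 1 with a gap of 0.35 over normal 1. The size of that gap is not settled, since the saturated reference read lowest beside escaper 1 (15.46 in normalised log2 intensity). In the dog's channel escaper 1 stood at 13.43 and normal 2 at 13.36. No dog reached the reference, which was at least 6.02-fold brighter than the normal dogs and at least 2.89-fold brighter than the affected dogs.

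The order of group means was not the same for all members. For ACTC1, TNNT2 and CHRNG it ran escaper, affected, normal, and for H19 affected, escaper, normal. For MYH8 the means of escapers and affected dogs were 0.07 apart, less than the spread within either group, and with saturated spots in affected 3 and 4 their order is not settled. Since the tissue was measured in bulk, fewer fibres of a kind and less RNA per fibre cannot be told apart. In the reference's own channel the 3 genes without saturated reference spots had an SD over the dogs' arrays of 0.12 (ACTC1), 0.15 (CHRNG) and 0.21 (TNNT2) on the log2 scale, and saturation limits that spread for MYH8 and H19, while the dogs' channel had an SD of 0.58 (H19) to 2.24 (ACTC1) over the 10 dogs.

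**Figure D2:**
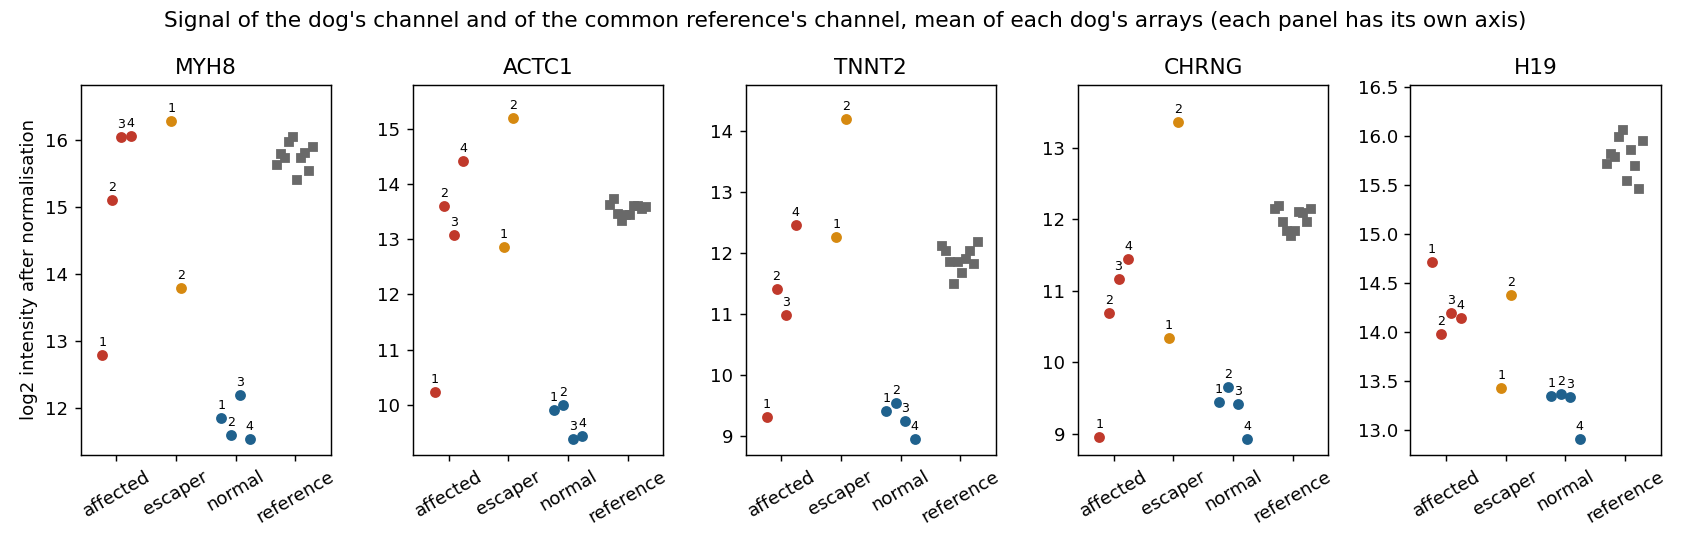
Normalised log2 intensity (vertical axis, a separate scale for each gene) of the dog's channel in affected, escaper and normal dogs and of the common reference's channel on the same arrays, where each point is the mean of a dog's arrays and squares are the reference. The reference's squares lie close together for ACTC1, CHRNG and TNNT2 (SD 0.12 to 0.21), those of MYH8 and H19 are limited by saturation, and the dogs spread most for ACTC1 (SD 2.24).

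Affected and normal dogs were compared first, in a fit over all 16008 tested probes with limma and Benjamini-Hochberg adjustment. All 5 genes averaged higher in affected dogs, and 0 of 5 passed the adjusted threshold of 0.05, which 3 of all tested probes (0.0187%) passed. MYH8 averaged 9.46-fold higher (log2 difference 3.24, SE 0.83, limma adjusted p = 0.230) and ACTC1 8.93-fold higher (3.16, SE 0.79, 0.230). TNNT2 averaged 3.39-fold higher (1.76, SE 0.57, 0.293) and CHRNG 2.43-fold higher (1.28, SE 0.61, 0.424). H19 had the smallest difference and the smallest error, 2.08-fold higher (1.06, SE 0.19, 0.120), and ranked 29th by p among all tested probes. At an unadjusted limma p under 0.05, 4 of 5 were higher, all but CHRNG, against 5.06% of tested probes. MYH8, ACTC1 and H19 had no overlap between the groups, which 5.28% of probes had in that direction.

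Affected 1 lay below the 3 other affected dogs for every member but H19, where it lay above them. Without affected 1, MYH8 (4.08, limma adjusted p = 0.0495) and ACTC1 (4.00, 0.0358) passed the threshold, and 22 of all probes did. The H19 call turned on the escapers, which enter only through the shared spread. With affected and normal dogs fitted alone, H19 passed (limma adjusted p = 0.0441), among 113 of all 16022 probes. Its difference was 1.06 in that fit and without either escaper, as with all dogs. With slide as a random block in limma, H19 passed as well (adjusted p = 0.0246), among 114 of all 16008 probes. The estimated correlation within slides was −0.27. With it the SE of H19 fell from 0.19 to 0.16 while the difference stayed at 1.06. Each slide held dogs of 1 group, so the block cannot take a slide effect out of these differences.

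Escapers were compared with normal dogs in the same fit. All 5 genes averaged higher in escapers and 0 of 5 passed in limma, as did 0 of 16008 probes (0%). The log2 difference was 4.31 for ACTC1 (SE 0.97, 19.8-fold, limma adjusted p = 0.189), 3.82 for TNNT2 (SE 0.70, 14.1-fold, 0.179), 3.31 for MYH8 (SE 1.02, 9.94-fold, 0.199), 2.47 for CHRNG (SE 0.74, 5.53-fold, 0.195) and 0.79 for H19 (SE 0.23, 1.72-fold, 0.191). TNNT2 ranked 21st by p among all tested probes. All 5 had an unadjusted limma p under 0.05 and no overlap between groups, where 9.67% and 14.5% of all probes did in that direction. With 2 escapers the non-overlap share is high for any probe, and for MYH8 and H19 the order rests on ratios to a saturated reference.

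The 2 escapers were far apart, and both lay on 1 slide. Since no slide held dogs of more than 1 group, slide and group cannot be told apart in any of the comparisons. Without escaper 1, which left escaper 2 alone and assumed to vary like the other groups, ACTC1 (5.45, limma adjusted p = 0.0109), TNNT2 (4.61, 0.00602), CHRNG (3.88, 0.00475) and H19 (1.01, 0.0295) passed, together with 3921 of all probes. Without escaper 2 none of the 5 passed, with adjusted p of 0.724 or more, and CHRNG stood at 1.05. Without affected 1, TNNT2 passed (adjusted p = 0.0385), among 9 of all 16017 probes. With slide as a random block ACTC1 (0.0452) and TNNT2 (0.0360) passed, among 522 of all 16008 probes, again with smaller SEs at the same differences.

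**Figure D3:**
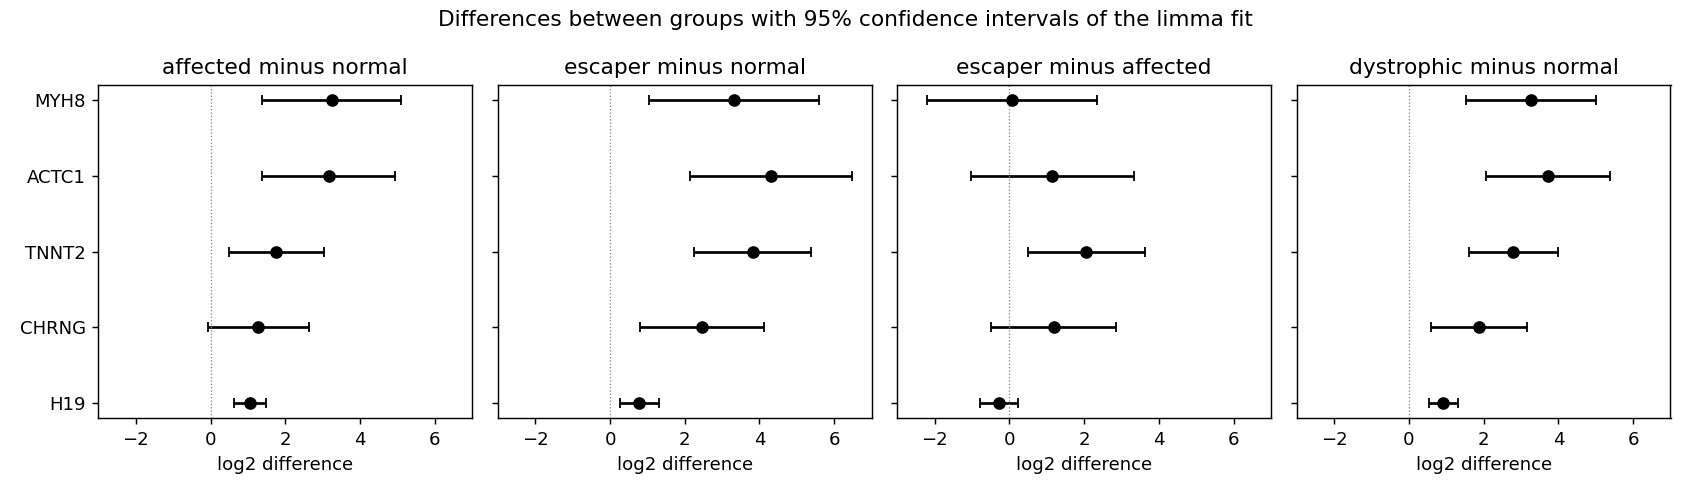
Log2 difference between groups (horizontal axis) for the 5 genes (vertical axis) in the 4 comparisons, where points are estimates of the limma fit and bars are 95% confidence intervals. Intervals are narrowest for H19, and in the comparison of escaper and affected dogs only that of TNNT2 (0.50 to 3.62) lies clear of 0.

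Escapers and affected dogs did not differ beyond the adjusted threshold in any of the 5 genes, as in 0 of all 16008 probes (0%). TNNT2 was 2.06 higher in escapers on the log2 scale (SE 0.70, 95% interval 0.50 to 3.62, limma adjusted p = 0.800). It was the 1 member with an unadjusted limma p under 0.05 and the 1 member without overlap, where 2.95% and 3.69% of all probes did so in that direction. ACTC1 (1.15, interval −1.02 to 3.32), CHRNG (1.18, −0.48 to 2.85) and MYH8 (0.07, −2.21 to 2.35) had intervals that reach far on either side. H19 was 0.27 lower in escapers (interval −0.79 to 0.24). These intervals do not show that the groups are alike, and that of MYH8 takes the saturated spots of affected 3 and 4 at their value. MYH8 was 1.36 lower in escaper 2 than in affected dogs when escaper 1 was left out and 1.50 higher in escaper 1 when escaper 2 was left out. CHRNG stood at 2.60 when escaper 1 was left out and at −0.24 when escaper 2 was left out, each time with 1 escaper remaining.

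Dystrophic dogs as 1 group, the mean of the affected and escaper means, averaged higher than normal dogs for all 5 genes, with limma adjusted p between 0.0919 and 0.150. The log2 difference was 3.73 for ACTC1 (SE 0.74, adjusted p = 0.0942), 3.28 for MYH8 (SE 0.78, 0.118), 2.79 for TNNT2 (SE 0.53, 0.0919), 1.87 for CHRNG (SE 0.57, 0.150) and 0.92 for H19 (SE 0.17, 0.0919). So 0 of 5 passed, against 20 of all probes (0.125%), while all 5 had an unadjusted p under 0.05 (9.5% of all probes in that direction). MYH8, ACTC1 and H19 had all 6 dystrophic dogs above all 4 normal dogs by measured ratio, which 3.55% of all probes had. TNNT2 and CHRNG had 5 of 6 above.

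Several settings moved these genes past the threshold, and in each of those more of all probes passed than the 20 of the reported fit. ACTC1 and TNNT2 passed with Agilent's processed signals (limma adjusted p = 0.0438 and 0.0343), among 247 of all 16008 probes. MYH8, ACTC1 and TNNT2 passed without affected 1 (0.0233 each), among 128 of all 16017 probes. All 5 passed with slide as a random block (0.0192 to 0.0425), among 1336 of all 16008 probes. That block left the differences as they were and made their SEs smaller, with a negative correlation within slides (−0.27). It cannot take out a slide effect, since each slide held dogs of 1 group. Without escaper 1, which left escaper 2 alone in its group, the log2 difference ran from 1.04 for H19 to 4.31 for ACTC1. Since the reference was saturated for MYH8 and H19, the dogs' channel was also fitted alone, a setting chosen after the data were seen. There MYH8 (3.23, adjusted p = 0.0433), ACTC1 (3.74, 0.0384) and TNNT2 (2.85, 0.0370) passed and H19 did not (0.84, 0.0724). Of all 16008 probes, 475 passed in that fit.

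**Figure D4:**
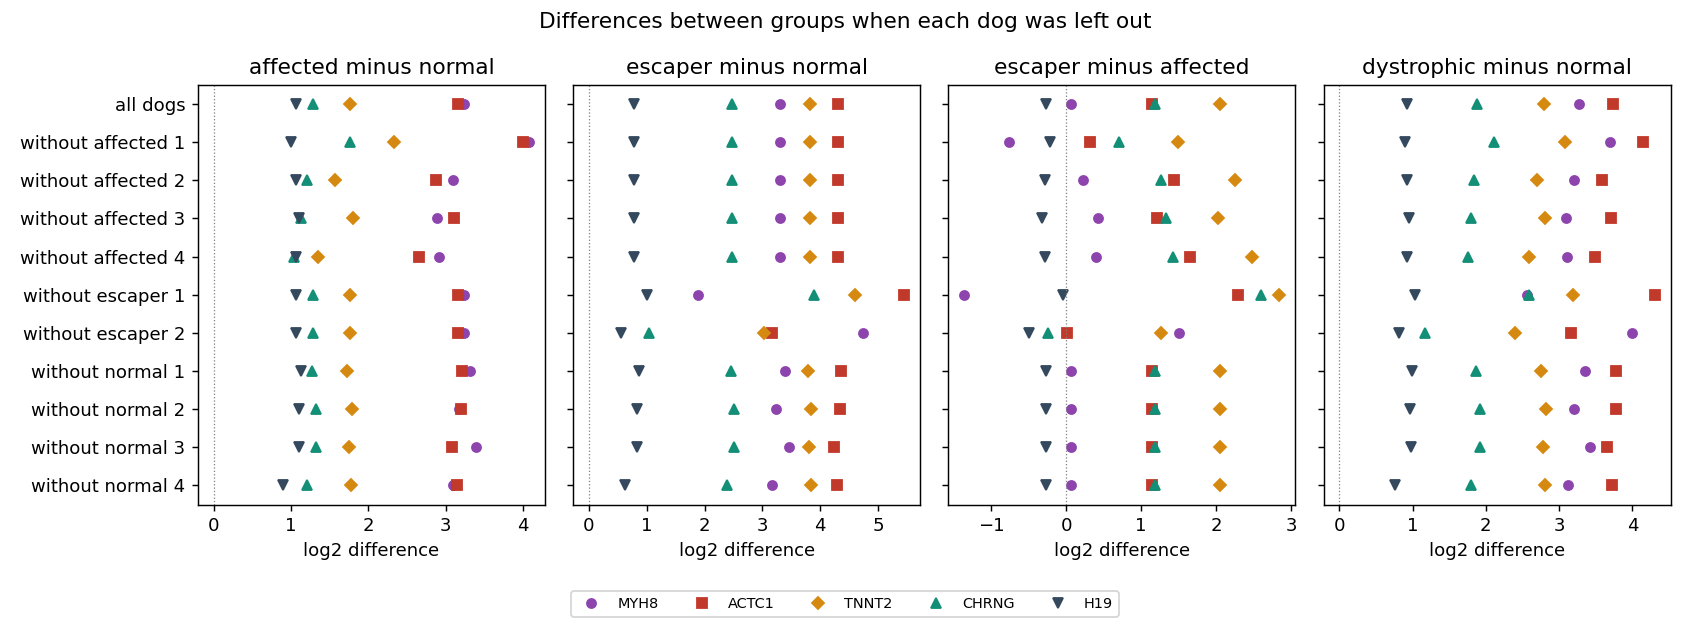
Log2 difference between groups (horizontal axis) for the 5 genes, marked by symbol, with all dogs and with each dog left out (vertical axis) in the 4 comparisons. Leaving out affected 1 or either escaper shifts the estimates, and for MYH8 the comparison of escaper and affected dogs changes sign, standing between −1.36 and 1.50.

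A second probe of the array is described as cardiac troponin T2 through transcript ENSCAFT00000017176 although its gene name is not TNNT2, so it is not a member. It lies at chr7:4497204-4497263, 26797 bases from the TNNT2 probe, has 85% G and C, and exceeded background clearly on 17 of 20 arrays. Its log2 ratio ran from −0.04 to 0.38 in affected dogs, was 0.06 and 0.27 in escapers, and ran from −0.06 to 0.24 in normal dogs. It differed by 0.11 between affected and normal dogs (SE 0.14, limma adjusted p = 0.756), so the probes described as troponin T2 disagree.

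Another probe, described in the files as an embryonic and atrial myosin light chain by likeness to a human transcript, was chosen after the descriptions were read. It stood at −3.32, 0.26, −0.29 and 1.81 in affected 1 to 4, at 1.47 and 2.61 in escaper 1 and 2, and at −3.55, −3.15, −3.42 and −4.01 in normal 1 to 4. Escaper 2 and affected 4 were highest and affected 1 lay among the normal dogs. The log2 difference was 3.15 between affected and normal dogs (SE 0.88, limma adjusted p = 0.260) and 5.57 between escapers and normal dogs (SE 1.08, 0.179). The probe named MYL4, the gene of the embryonic and atrial light chain, exceeded background clearly on 3 of 20 arrays only and was not tested. Other probes looked up by description did not follow the members in this way. That of TNNI1 differed by 0.48 between affected and normal dogs (SE 0.67, limma adjusted p = 0.785). Between escapers and normal dogs it differed by 0.46 (SE 0.83, 0.795). That of TNNT1, saturated in the dog's channel on 17 of 20 arrays, stood at 0.12 and 0.62, and that of PAX7 was not tested.

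Other genes of immature fibres had a smaller median difference than the 5 members, whose medians were 1.76 between affected and normal dogs and 3.31 between escapers and normal dogs. Since the members and lists were chosen with earlier results of these data known, this contrast is a description and not a test. Of 32 listed, 14 were on the array and 11 were tested, with a median log2 difference of 0.28 between affected and normal dogs and 0.33 between escapers and normal dogs (all tested probes, 0.02 and 0.00), and 0 passed in any comparison. The muscle LIM protein CSRP3 (1.81, SE 0.72, limma adjusted p = 0.365) and the myosin-binding protein MYBPH (1.14, SE 0.68, 0.525) had the largest differences between affected and normal dogs, and the same genes stood at 0.24 and 0.33 between escapers and normal dogs. MYF5, the myogenic factor of satellite cells, differed by 0.29 and 0.45. MYH3, the embryonic myosin gene, and the myogenic factors MYOD1 and MYOG had no probe under those names.

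Among 12 tested adult counterparts, 9 averaged lower in affected than in normal dogs (median −0.21), and 0 passed in any comparison. The dog's channel was saturated on at least 1 array for 8 of these 12, on up to 18 of 20 for the fast regulatory light chain MYLPF, which limits what their differences can show. MYBPC2, the fast myosin-binding protein C, stood lowest (−1.67, SE 0.63, limma adjusted p = 0.350, and −2.22, SE 0.78, 0.211 between escapers and normal dogs). TNNT3, the fast troponin T of adult fibres, was at −0.59 (SE 0.63, adjusted p = 0.713) between affected and normal dogs, with −2.06 in affected 1 and −1.74 in escaper 2 as log2 ratios to the reference and values between 0.00 and 0.99 in the other 8 dogs. Dogs with low TNNT3 thus included both affected 1, which had low TNNT2, and escaper 2, which had the highest TNNT2. TNNT3 was saturated in the dog's channel on 11 of 20 arrays. TNNC1, the slow and cardiac troponin C, stood at 0.56 in both comparisons (affected SE 0.50, limma adjusted p = 0.659, and escaper SE 0.61, 0.647). Between escapers and normal dogs MYLPF stood at 0.89 without overlap (SE 0.37, adjusted p = 0.253) and the tropomyosin gene TPM1 at 1.09 (SE 0.53, 0.298).

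The other subunits of the acetylcholine receptor had smaller differences than CHRNG, and the contrast between subunits was not tested. CHRNE, the adult counterpart of CHRNG, stood at −0.47, 0.40, 0.90 and −0.02 in affected 1 to 4, 0.09 and 0.998 in escaper 1 and 2, and −0.58, 0.00, −0.27 and −0.72 in normal 1 to 4. It averaged 0.59 higher in affected dogs (SE 0.32, limma adjusted p = 0.475) and 0.94 higher in escapers (SE 0.39, 0.250) than in normal dogs, so foetal and adult subunit both averaged higher. CHRNA1, the alpha subunit that both receptor forms share, was at 0.78 (SE 0.51, adjusted p = 0.558) and 1.37 (SE 0.63, 0.277). For CHRNA1, as for CHRNG, escaper 2 was highest (1.34), and affected 1 was the lowest of all dogs (−1.49). CHRND was well above background on 1 of 20 arrays. Of 19 listed genes of the nerve-muscle contact and of denervation, 5 were tested and 0 passed in any comparison.

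H19's neighbour and other imprinted genes gave mixed values. IGF2 averaged 0.62 higher in affected than in normal dogs (SE 0.23, limma adjusted p = 0.344) and 0.32 higher in escapers than in normal dogs (SE 0.28, 0.561), with overlap in both. Affected 1, highest for H19, had the lowest IGF2 of the affected dogs, −0.50 as log2 ratio to the reference. MRPL23 on the other side of H19 ran from −0.23 to 0.63 in affected dogs, was −0.07 and −0.60 in escapers and ran from 0.07 to 0.42 in normal dogs. IGF2R, the receptor that clears IGF2, averaged 1.04 higher in affected dogs (SE 0.22, adjusted p = 0.176) and PLAGL1, an imprinted growth regulator, 1.22 lower (−1.22, SE 0.40, 0.304), both without overlap between the groups. Between escapers and normal dogs IGF2R stood at 0.64 (SE 0.27, limma adjusted p = 0.251) and PLAGL1 at −1.01 (SE 0.49, 0.300). There NNAT stood at −0.99 (SE 0.33, 0.204) and DCN at 2.44 (SE 0.94, 0.229). NNAT also averaged lower in affected dogs (−0.38, SE 0.27, 0.587). All dystrophic dogs lay below all normal dogs for NNAT and PLAGL1 and above them for IGF2R. Of 11 tested imprinted genes other than H19, 5 averaged higher and 6 lower in affected dogs, and 0 passed in any comparison.

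The genes whose ratios over the 10 dogs were most like each member were named by the highest Pearson r among 6168 named genes, as a description of points that share a reference and in which the 4 normal dogs lie together. For MYH8 they were DYNLT3 (0.91), FUBP1 (0.89) and C6H7ORF61 (0.88). For ACTC1 they were CD81 (0.97), a membrane protein that is also made by myoblasts, SSX2IP (0.96) and SNCG (0.96). For TNNT2 they were CD81 (0.98), the matrix protein SPARC (0.97) and the bone matrix protein BGLAP (0.97). For CHRNG they were KAZALD1 (0.99), the matrix protein EFEMP2 (0.99) and SLC44A1 (0.98). For H19 they were C19H2ORF76 (0.98), the dynein chain DYNLRB2 (0.96) and GSTO1 (0.95). The median r over all named genes lay between −0.08 and 0.11.

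Markers of other cell types moved with these genes in some dogs. The 11 fibroblast markers had a mean log2 ratio of −0.96 to 1.16 in affected dogs, −0.16 and 2.06 in escapers, and −0.91 to −0.51 in normal dogs, with escaper 2 and affected 4 highest and affected 1 lowest. The collagen gene COL1A2, with the smallest p of them, had a log2 difference of 1.74 between affected and normal dogs (SE 0.88, limma adjusted p = 0.453). Between escapers and normal dogs COL1A2 differed by 3.43 (SE 1.08, adjusted p = 0.201) and COL3A1 by 3.71 (SE 1.21, 0.202), both without overlap. The 8 tested macrophage markers of 12 ran from −1.09 to −0.22 in affected dogs, were −1.22 and 0.92 in escapers, and ran from −1.76 to −1.37 in normal dogs. The lectin gene LGALS3 had the largest difference of these, 2.48 between affected and normal dogs (SE 0.48, limma adjusted p = 0.125) and 2.55 between escapers and normal dogs (SE 0.58, 0.189). In the comparison of escapers with normal dogs 5 of 11 fibroblast and 5 of 8 macrophage markers were higher at an unadjusted limma p under 0.05. Of all probes 9.67% were, and the median log2 differences of the 2 lists were 1.43 and 1.56. Between affected and normal dogs 0 of 11 and 1 of 8 were higher at that p, where 5.06% of all probes were. The medians there were 0.53 and 0.77. The 7 tested skeletal fibre markers of 12 ran from −1.43 to 0.44 in affected dogs, were 0.70 and −2.42 in escapers, and ran from 0.42 to 0.98 in normal dogs, lowest in escaper 2 and affected 1. All 7 averaged lower in affected and in escaper than in normal dogs, with median log2 differences of −0.47 and −1.31. PYGM, with the smallest p of them, stood at −1.85 (SE 0.63, limma adjusted p = 0.311) and −2.53 (SE 0.77, 0.196), both without overlap. No marker of these lists passed in any comparison, and their part in the differences of the 5 genes was not tested.

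ACTC1 and TNNT2 are also heart genes, so cardiac markers were read beside them. Of 11 cardiac markers 5 were on the array and 1 was tested: RYR2 was well above background on 0 of 20 arrays, MYBPC3 and NKX2-5 on 1 each and NPPA on 2. The tested one, the cardiac troponin I gene TNNI3, exceeded background clearly on all 20 arrays. Its log2 ratio ran from −1.23 to 0.96 in affected dogs, was 0.50 and 1.63 in escapers, and ran from −1.37 to 0.23 in normal dogs. It differed by 0.48 between affected and normal dogs (SE 0.52, limma adjusted p = 0.718). Between escapers and normal dogs it differed by 1.58 without overlap (SE 0.64, adjusted p = 0.244), in the direction of ACTC1 and TNNT2, and its part in their differences was not tested. The 4 tested satellite cell markers of 8 spanned −0.67 to −0.43 in affected dogs, −0.48 to −0.34 in escapers and −0.68 to −0.47 in normal dogs, so they overlapped. The 3 tested smooth muscle markers of 8 spanned −0.27 to 0.01 in affected dogs, 0.48 to 0.98 in escapers and 0.08 to 0.54 in normal dogs. Of 7 Schwann cell markers, all on the array, 1 was tested, PMP22, which was highest in affected 1 at 2.54 and ran from −1.67 to −0.64 in normal dogs.

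**Figure D5:**
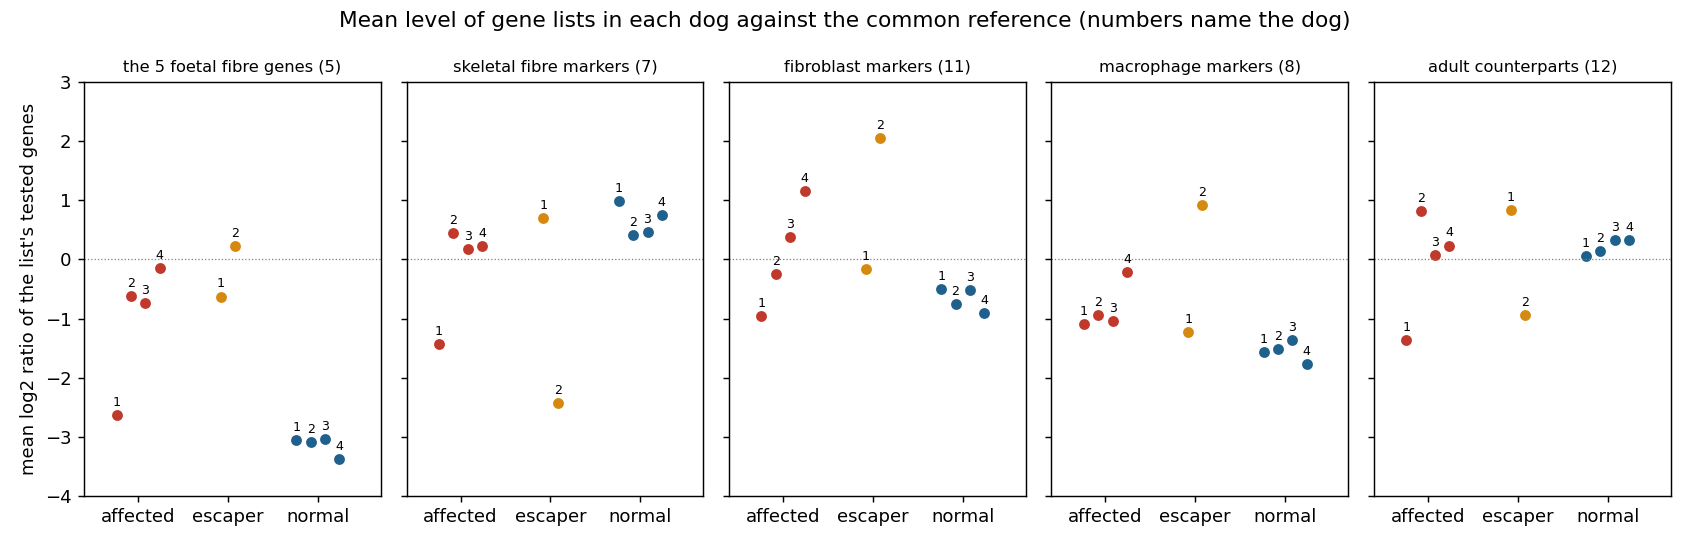
Mean log2 ratio to the common reference (vertical axis) over the tested genes of 5 lists in affected, escaper and normal dogs, where points are dogs, numbers name the dog and the number of genes stands beside each list's name. The 5 foetal fibre genes ran from −2.63 to −0.14 in affected dogs, were −0.63 and 0.23 in escapers, and ran from −3.37 to −3.04 in normal dogs.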

How the data were processed

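Per the file headers, Agilent Feature Extraction 9.5.3.1 quantified the scans. The scanner files deposited by the authors give each spot's mean intensity and background intensity in red and green, and a log10 ratio. The deposited table of log2 values equals Agilent's processed dog over reference ratio (r = 1 on each array), uncentred and with dye swaps already turned, and served as an alternative.

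Intensities were corrected with normexp (offset 50) and loess-normalised within arrays with limma 3.58.1 in R 4.3.3. Controls and outlier-flagged spots were left out. Ratios were turned to dog over reference and averaged over a dog's 2 arrays. Tested probes (16008) had a value in every dog and, for at least 2 dogs, a dog signal well above background on each of both arrays. All 10 dogs entered 1 fit with 3 groups, with Benjamini-Hochberg adjustment over all tested probes and a threshold of 0.05. Each of 5 slides held 2 dogs of 1 group. The procedure was tested on simulated data.

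Symbols were updated through RefSeq's gene table, which left 29752 probes unnamed. From each list the text draws on the 3 tested genes with the smallest p in the comparison of affected with normal dogs and the 3 in that of escapers with normal dogs, a gene being represented by its brightest tested probe. The members and lists were chosen with earlier results of these data known. Alternatives changed the signals, centring, filter, variance model, slide block, dye and dogs. A fit of the dogs' channel and one with flagged spots kept were added after the data were seen.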

Additional observations from a re-analysis of the deposited data

Results flagged for a closer look

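Normal 4 stood apart from the other normal dogs for H19, with a log2 ratio to the reference of −3.09 against −2.45 to −2.38 in the other 3, a gap of 0.90 of the group's range that passes Dixon's 95% critical value for groups of 4. It was the 1 group flagged among the 10 checked (5 genes in affected and in normal dogs), and chance flags about 1 group in 20. Without normal 4 the log2 difference of H19 between affected and normal dogs was 0.89. The gap of affected 1 below the other affected dogs was 0.82 of the range for MYH8, just under that value. Its gap was 0.77 for CHRNG, 0.67 for ACTC1 and 0.55 for TNNT2.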

How the results depend on the processing

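In 4 comparisons and up to 23 alternatives each, the number of the 5 genes that passed stood at 0 except in these. Between affected and normal dogs 1 passed with only the groups compared and 1 with slide as a random block. Between escapers and normal dogs 2 passed with the slide block. Between dystrophic and normal dogs 2 passed with Agilent's processed signals, 2 with the deposited value table, 5 with the slide block and 3 with the dogs' channel alone. Leaving out each dog gave 0 to 2 between affected and normal dogs, 0 to 4 between escapers and normal dogs, 0 to 1 between escapers and affected dogs and 0 to 5 between dystrophic and normal dogs. Over all tested probes the number past the threshold moved too, between 0 and 114 for affected (3 in the reported fit), 0 and 3921 for escaper (0) and 0 and 3615 for dystrophic against normal dogs (20), and between 0 and 1755 for escaper against affected dogs (0). No difference of a dystrophic group against normal dogs changed sign under any alternative. Between escapers and affected dogs MYH8 stood at −0.49 with median centring, under which the median over all tested probes in that comparison was −0.18, and at −1.36 to 1.50 with each dog left out, and CHRNG at −0.24 to 2.60. Median centring also brought H19 to 0.21 between escapers and normal dogs (0.79 as reported, limma adjusted p = 0.756), to 0.55 between dystrophic and normal dogs (0.92 as reported, 0.262) and to −0.69 between escapers and affected dogs (−0.27 as reported). Ratios to the reference changed sign for ACTC1 in escapers with median centring (−0.19). With each dog left out they spanned −0.68 to 1.61 for ACTC1 and −1.63 to 1.21 for CHRNG in escapers, −2.11 to 0.75 for MYH8 in escapers, and −1.10 to 0.0896 for MYH8 and −1.18 to 0.15 for ACTC1 in affected dogs. Arrays with the dog in Cy3 alone gave no tested difference for MYH8, whose flagged spots leave 4 dogs without one; its ratio over the remaining dogs was −1.69 in affected dogs (−0.75 with both dyes), −0.75 in escapers and −4.29 in normal dogs. With flagged spots kept, MYH8 differed by 3.49 between affected and normal dogs. No paired analysis was possible because replicate numbers only follow accession order. The cause of these shifts was not tested, and saturation limits MYH8 and H19 ratios to the reference.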

Other observations

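A further probe that the files describe as a cardiac actin fragment (transcript ENSCAFT00000024881, chr26:41769152-41769211) did not follow ACTC1 in affected dogs. It differed by 0.04 between affected and normal dogs and by 1.60 between escapers and normal dogs on the log2 scale. The smooth muscle actin probe ACTG2, which carries the same description, stood at −1.26 and 0.31 in those comparisons. The description therefore does not single out 1 actin gene, and these values were looked up after the descriptions were read.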
